A study of Mus musculus with 6 samples.

Results

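The 10 genes described here make, break down or sense prostaglandins: *Ptgs1*, *Ptgs2*, *Ptges*, *Ptges2*, *Ptges3*, *Ptgds*, *Hpgd*, *Ptger2*, *Ptger3* and *Ptger4*. They were taken by name and found through their Ensembl identifiers in GENCODE M21 on mouse genome build GRCm38, and all 10 were among the 26579 genes of the count table. RNA-Seq was carried out on whole-skin biopsies of the dorsal neck from 3 female YAP2-5SA-∆C mice and 3 female wild type littermates, all at 33 days of age. YAP2-5SA-∆C mice carry a mildly activated mutant of the transcriptional cofactor YAP, expressed in basal keratinocytes that make Keratins 5 and 14. The transgenic mice were sampled when skin changes had just become apparent, with a thickened epidermis. Wild type littermates lack the transgene, and the labels name no further allele or treatment in either group.

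Prostaglandins are lipid signals made from arachidonic acid. The cyclooxygenases, encoded by *Ptgs1* and *Ptgs2*, turn released arachidonic acid into prostaglandin H2, from which prostaglandin E synthases make PGE2 and prostaglandin D synthases make PGD2. PGE2 acts on 4 EP receptors and is inactivated by the dehydrogenase encoded by *Hpgd*. In skin, PGE2 is known for its part in inflammation, wound repair and keratinocyte growth, and PGD2 for its effect on hair growth.

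Counts assigned to genes totalled between 11225705 (wild type replicate 3) and 19505036 per library, and 15102 genes that reached 1 CPM (the count scaled to library size) in 3 or more libraries were tested. CPM values below are scaled between libraries by TMM (trimmed mean of M-values), and RPKM is that CPM per kilobase of exon. Each adjusted value (FDR) is from edgeR's quasi-likelihood test with Benjamini-Hochberg adjustment over all tested genes, with a threshold of 0.05, unless another test is named. YAP2-5SA-∆C replicate 2 stood apart: the summed level of 6 hair shaft and inner root sheath markers was 1291 CPM there, 6208 and 7967 CPM in the other YAP2-5SA-∆C libraries and 11650 to 14240 CPM in wild type. *Yap1* had a log2 fold change of 0.06 (SE 0.07, FDR 0.635), and the share of transgene reads among its counts is unknown. Summed keratinocyte, hair, fibroblast, endothelial, melanocyte and macrophage markers were above 0 in all libraries, although the keratinocyte marker *Flg* and the neutrophil marker *Ly6g* were not analysed here.

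The 250 bases before the RefSeq start (GRCm38.p6) are shown for the 3 genes that passed the test, to place the change in transcript level beside the sequence next to the start. They are written 5′ to 3′ on the strand of the gene, and capitals mark a match to a searched motif.
*Ptgs2*, chr1:150099781-150100030, plus strand: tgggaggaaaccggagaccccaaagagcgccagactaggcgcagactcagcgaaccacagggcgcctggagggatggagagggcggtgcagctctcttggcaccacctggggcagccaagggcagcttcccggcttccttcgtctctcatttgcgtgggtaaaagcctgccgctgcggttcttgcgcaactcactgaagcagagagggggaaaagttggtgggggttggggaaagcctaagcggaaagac
*Ptges*, chr2:30903298-30903547, minus strand: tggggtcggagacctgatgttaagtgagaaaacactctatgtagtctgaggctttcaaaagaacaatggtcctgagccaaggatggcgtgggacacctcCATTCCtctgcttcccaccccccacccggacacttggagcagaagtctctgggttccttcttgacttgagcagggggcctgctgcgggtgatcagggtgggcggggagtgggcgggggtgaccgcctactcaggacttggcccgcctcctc
*Ptger4*, chr15:5244188-5244437, minus strand: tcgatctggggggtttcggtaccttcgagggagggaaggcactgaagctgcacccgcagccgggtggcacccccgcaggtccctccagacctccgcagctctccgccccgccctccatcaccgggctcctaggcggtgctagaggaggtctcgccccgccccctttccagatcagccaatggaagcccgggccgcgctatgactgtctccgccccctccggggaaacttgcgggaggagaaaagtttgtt
In the annotation, the *Ptgs2* stretch also holds exon sequence of *Ptgs2os*, a noncoding transcript on the opposite strand. The *Ptges* stretch lies in an intron of a longer *Ptges* transcript, and no annotated exon touches the *Ptger4* stretch. The capitals in *Ptges* are CATTCC, the core GGAATG of the TEAD factors read on the opposite strand, 151 bases before the start. This core, searched on both strands, occurs in 12.6% of the 32851 promoter windows of the same length, and in 2 of the 10 genes, *Ptges* and *Ptges2*. The AP-1 motif TGANTCA was in the window of *Ptgds* (6.75% of all windows), and the NF-kB motif in those of *Ptges3* and *Ptger3* (17.6% of all windows). None of the 10 windows held the cyclic AMP response core TGACG (17.8% of all windows) or the TATA box TATAAA (12.4%). These matches are letters in a window and do not show binding. Bases outside the 250 were not searched, so a motif missing from a window may still lie close to the gene.

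For *Ptgs2*, the RT-PCR primers used in the study are shown because they give the exons in which that transcript was assayed separately.
Ptgs2-F, chr1:150100148-150100167, plus strand, exon 1: ctcacgaaggaactcagcac
Ptgs2-R, chr1:150100974-150100995, minus strand, exon 2: ggattggaacagcaaggatttg
The forward primer matched exon 1 and the reverse primer exon 2 of the *Ptgs2* transcript ENSMUST00000035065.8, so that the amplicon spans an intron.

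*Ptgs2* and *Ptges* rose and *Ptger4* fell in YAP2-5SA-∆C skin, and the other 7 genes did not pass the test. *Ptgs2* was 4.30-fold higher by mean CPM and *Ptges* 1.82-fold higher, whereas *Ptger4* was at 0.692 of its wild type level. The enzyme *Ptges* and the inducible cyclooxygenase *Ptgs2* both lie on the route to PGE2, and *Ptger4* encodes a receptor for it. The 3 calls among 10 genes stand beside 1.91% of all tested genes (288 of 15102). By the likelihood-ratio test of edgeR, 5 of the 10 genes passed, with *Ptgs1* and *Ptgds* added, beside 10.4% of all tested genes. The 3 CPM values of each genotype did not overlap for 5 of the 10 genes (*Ptgs1*, *Ptgs2* and *Ptges* higher, *Ptgds* and *Ptger4* lower), beside 33.8% of all tested genes. The median log2 fold change was 0.07 over the 10 genes and -0.01 over all tested genes. In these biopsies, a change in the number of cells of a type and a change in RNA per cell cannot be told apart.

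**Figure D1:**
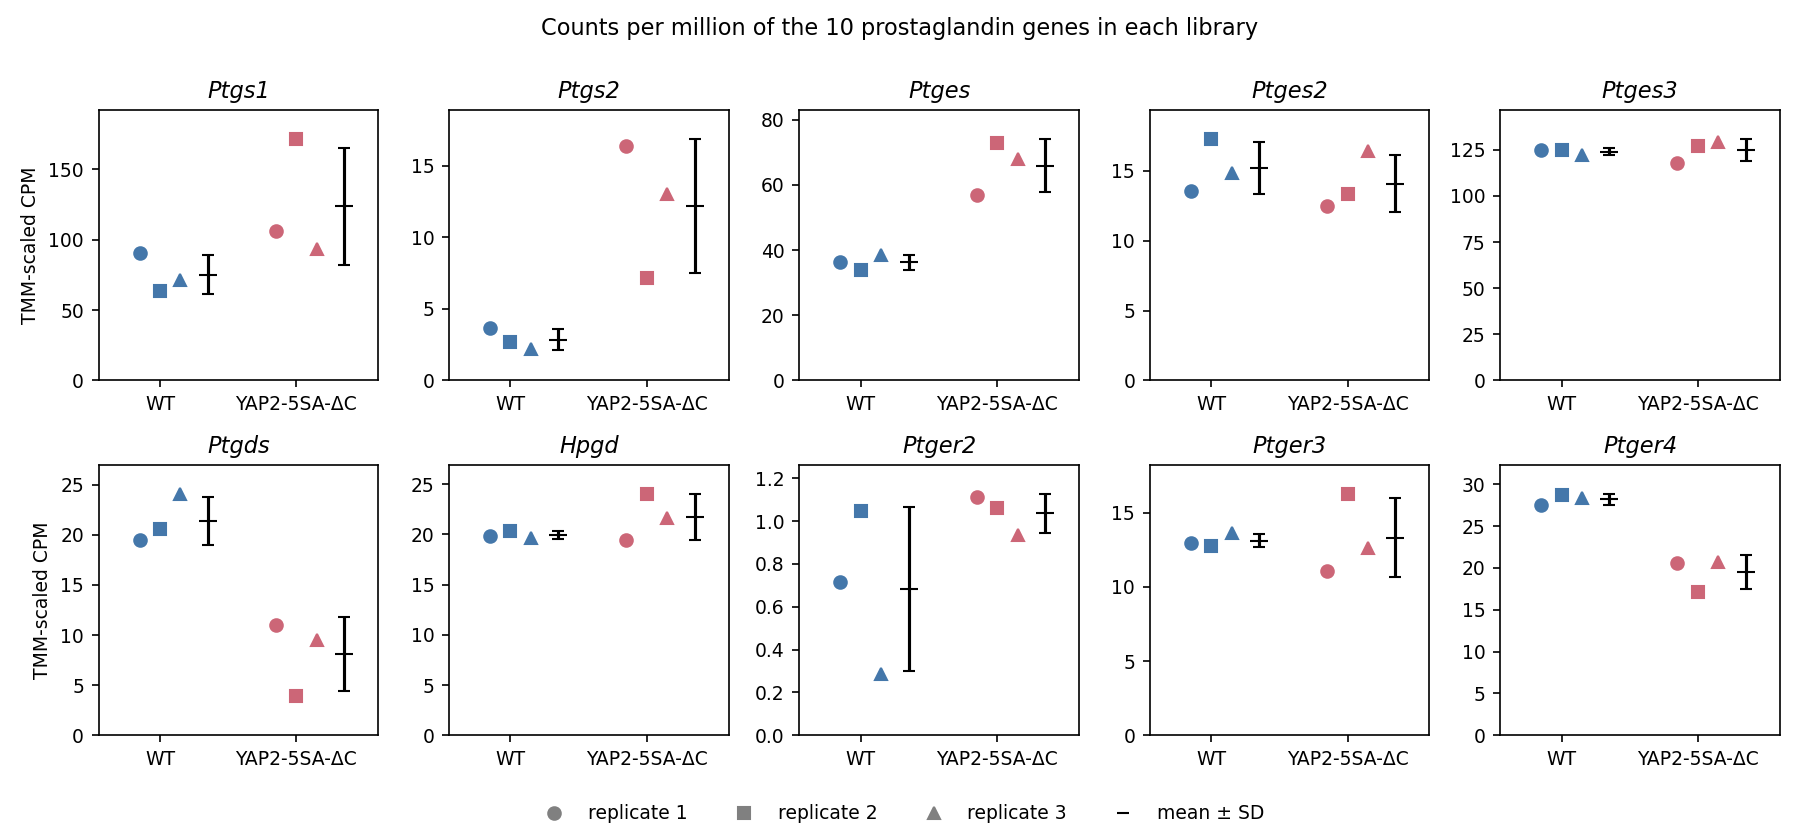
TMM-scaled CPM (y axis, from 0) of each of the 10 genes in each of the 6 libraries, by genotype (x axis; WT is wild type). Symbols give the replicate number and the black bar the mean with its SD (n = 3). The genotypes are apart for *Ptgs1*, *Ptgs2*, *Ptges*, *Ptgds* and *Ptger4* and overlap in the other 5 panels.

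Of the cyclooxygenases, the inducible *Ptgs2* (ENSMUSG00000032487, chr1:150100031-150108227, plus strand) was the low one in every library. It had 66, 51 and 23 counts in wild type replicates 1 to 3 and 294, 121 and 209 counts in YAP2-5SA-∆C replicates 1 to 3. As CPM these were 3.63, 2.67 and 2.19 against 16.4, 7.12 and 13.0, with means of 2.83 ± 0.733 and 12.2 ± 4.68 (SD, n = 3). All YAP2-5SA-∆C libraries lay above all wild type libraries, and replicate 2 was the lowest of the 3 and closest to wild type. The log2 fold change was 2.09 (SE 0.33, 95% interval 1.30 to 2.87, FDR 0.0419). It ranked 88 of 15102 by size of the log2 fold change and 149 by p-value. The call was lost without YAP2-5SA-∆C replicate 1 (FDR 0.0677) or replicate 3 (0.0906), without wild type replicate 1 (0.0637), 2 (0.186) or 3 (0.143), and by voom (0.0618), while the log2 fold change stayed between 1.84 and 2.37 in the 6 fits without 1 library. Without YAP2-5SA-∆C replicate 2, the FDR was 0.00824.

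*Ptgs1* (ENSMUSG00000047250, chr2:36230426-36252272, plus strand), the constitutive cyclooxygenase, had 90.6, 63.5 and 71.3 CPM in wild type and 106, 171.5 and 93.6 CPM in YAP2-5SA-∆C skin. The groups did not overlap, but the lowest YAP2-5SA-∆C library was only just above wild type replicate 1, and replicate 2 was far above both others. The means were 75.1 ± 13.9 and 123.7 ± 41.85 CPM (SD, n = 3), and the log2 fold change of 0.72 (SE 0.24, 95% interval 0.15 to 1.29) did not pass (FDR 0.123). It passed by edgeR's likelihood-ratio test (FDR 0.0247) and by DESeq2 (0.0112). Without YAP2-5SA-∆C replicate 2 the log2 fold change was 0.43 (FDR 0.14). The 5 suprabasal keratinocyte markers analysed summed to 4550, 3791 and 4487 CPM in wild type and to 5595, 9280 and 5016 CPM in YAP2-5SA-∆C skin, also highest in replicate 2, and their part in the *Ptgs1* values was not tested.

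Because the 2 genes differ in exon length, their levels were compared as RPKM. *Ptgs1* was at 19.3 ± 3.59 RPKM in wild type and 31.9 ± 10.8 RPKM in YAP2-5SA-∆C skin, and *Ptgs2* at 0.618 ± 0.16 and 2.66 ± 1.02 RPKM (SD, n = 3). *Ptgs2* made up 3.29%, 3.44% and 2.54% of the summed RPKM of both genes in wild type. In YAP2-5SA-∆C skin its share was 11.6%, 3.40% and 10.6%. The share was thus above wild type in replicates 1 and 3 and within the wild type range in replicate 2, where both genes were higher than in wild type.

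**Figure D2:**
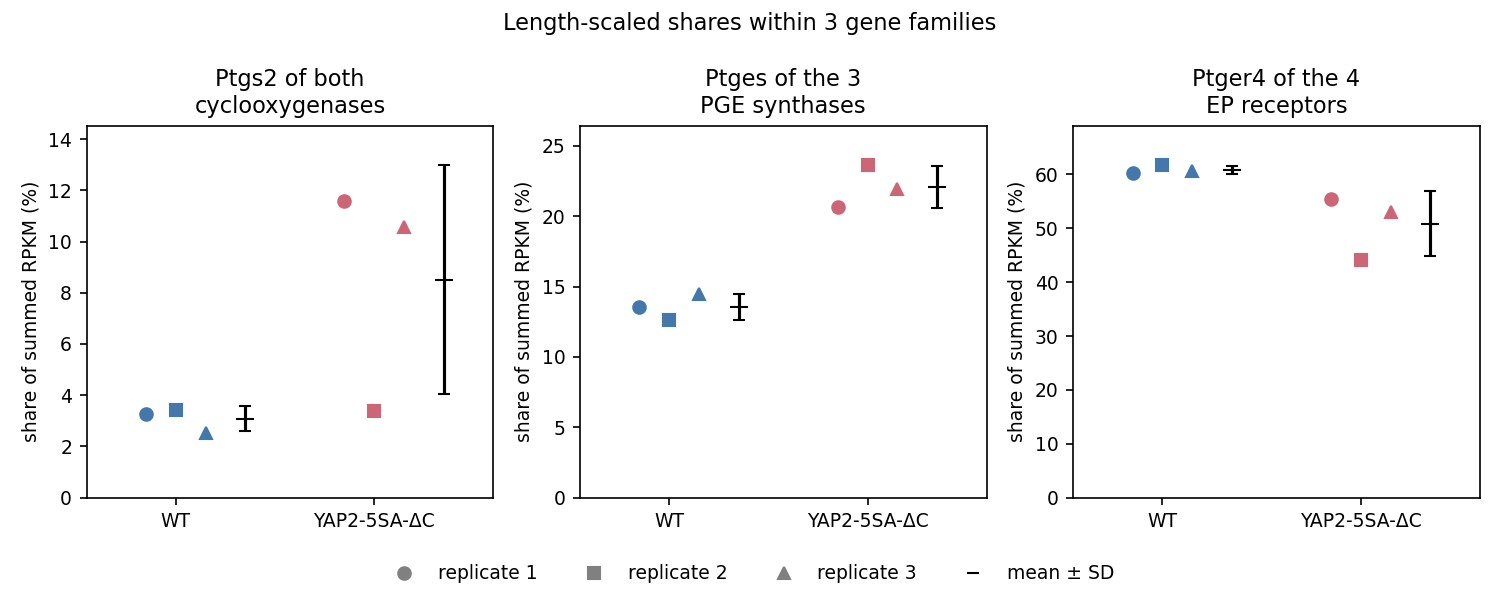
Share (%) of the summed RPKM taken by *Ptgs2* among both cyclooxygenases, by *Ptges* among 3 PGE synthases and by *Ptger4* among 4 EP receptors, in each library (symbols by replicate; black bar, mean and SD, n = 3; y axes from 0). The *Ptgs2* share of YAP2-5SA-∆C replicate 2 lies among wild type, the *Ptges* share is higher in all 3 YAP2-5SA-∆C libraries and the *Ptger4* share is lower in all 3.

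Among the PGE synthases, only *Ptges* passed the test. *Ptges* (ENSMUSG00000050737, chr2:30889471-30929863, minus strand) encodes the inducible microsomal enzyme that works downstream of the cyclooxygenases. It had 660, 649 and 404 counts in wild type and 1026, 1237 and 1091 counts in YAP2-5SA-∆C skin, or 36.3, 34.0 and 38.4 CPM against 57.1, 72.8 and 68.1 CPM. Every YAP2-5SA-∆C library was above every wild type library, with a gap wider than the range within wild type. The means were 36.2 ± 2.24 and 65.98 ± 8.07 CPM (SD, n = 3). The log2 fold change was 0.87 (SE 0.10, 95% interval 0.62 to 1.11, FDR 0.030), the 28th lowest p-value of all tested genes. The FDR was 0.175 and 0.114 with wild type replicates 2 and 3 left out in turn and 0.0906 with YAP2-5SA-∆C replicate 3 left out, and it stayed below the threshold without any of the other 3 libraries. *Gm13400*, a processed pseudogene inside an intron of *Ptges*, had 1 to 5 counts.

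*Ptges2* (ENSMUSG00000026820, chr2:32395896-32405772, plus strand), a membrane-associated PGE synthase, had 13.6, 17.3 and 14.8 CPM in wild type and 12.5, 13.4 and 16.4 CPM in YAP2-5SA-∆C skin. The groups overlapped, and the log2 fold change was -0.11 (95% interval -0.44 to 0.21, FDR 0.640). *Ptges3* (ENSMUSG00000071072, chr10:128058954-128077272, plus strand), which encodes the HSP90 co-chaperone p23 and is also called the cytosolic PGE synthase, was even across all libraries. It had 125, 125 and 122 CPM in wild type and 118, 127 and 129 CPM in YAP2-5SA-∆C skin, with a log2 fold change of 0.01 (95% interval -0.13 to 0.14, FDR 0.931). Its processed pseudogene *Ptges3-ps* had 31 to 64 counts, and reads that fit both equally well are not among the uniquely mapped reads counted. Of the summed RPKM of the 3 synthases, *Ptges* took 13.5% ± 0.911 in wild type skin and 22.1% ± 1.48 in YAP2-5SA-∆C skin, and *Ptges3* took 82.1% ± 0.727 and 74.3% ± 1.42 (SD, n = 3).

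*Ptgds* (ENSMUSG00000015090, chr2:25466709-25470046, minus strand), the lipocalin-type PGD synthase, had 355, 394 and 253 counts in wild type and 197, 66 and 152 counts in YAP2-5SA-∆C skin. As CPM these were 19.5, 20.6 and 24.1 against 10.96, 3.88 and 9.49, with means of 21.4 ± 2.38 and 8.11 ± 3.73 (SD, n = 3). No YAP2-5SA-∆C library reached the wild type range, and replicate 2 was the lowest. The log2 fold change of -1.40 (SE 0.34, 95% interval -2.20 to -0.59) had an FDR of 0.0671 and so did not pass the quasi-likelihood test. It passed by edgeR's likelihood-ratio test (FDR 8.26e-05) and by DESeq2 (2.88e-04). Without YAP2-5SA-∆C replicate 2 the log2 fold change was -1.05 and its FDR 0.0132. The hair shaft and melanocyte marker lists were also lower in YAP2-5SA-∆C skin and lowest in replicate 2, and their part in the *Ptgds* values was not tested. The 6 hair shaft and inner root sheath markers all had negative log2 fold changes (median -1.39), and the 5 melanocyte markers summed to 408 to 478 CPM in wild type and to 261, 151 and 249 CPM in YAP2-5SA-∆C skin.

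*Hpgds*, the PGD synthase of haematopoietic cells, is named beside it after its values were seen. It had 34.4, 23.6 and 27.8 CPM in wild type and 40.1, 74.3 and 44.6 CPM in YAP2-5SA-∆C skin, with a log2 fold change of 0.89 (FDR 0.0859). Like *Ptgds*, it passed by edgeR's likelihood-ratio test (FDR 0.00463) and by DESeq2 (0.00255). The PGD synthases therefore had fitted changes of opposite sign, neither of which passed the quasi-likelihood test, and in each of them YAP2-5SA-∆C replicate 2 was the farthest from wild type. The 6 mast cell markers summed to 154 to 173 CPM in wild type and to 197, 248 and 241 CPM in YAP2-5SA-∆C skin. Of the 5 that were tested, 4 had positive log2 fold changes and *Kit* had -0.198 (FDR 0.277). The part of these markers in the *Hpgds* values was not tested.

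*Hpgd* (ENSMUSG00000031613, chr8:56294585-56321043, plus strand), which encodes the enzyme that begins the inactivation of PGE2, had 19.8, 20.4 and 19.6 CPM in wild type and 19.5, 24.0 and 21.7 CPM in YAP2-5SA-∆C skin. The groups overlapped, and the 95% interval of the log2 fold change of 0.12 ran from -0.10 to 0.34 (FDR 0.433). The ratio of *Ptges* to *Hpgd* RPKM was 0.783, 0.714 and 0.840 in wild type and 1.26, 1.30 and 1.35 in YAP2-5SA-∆C skin. The synthase was thus below the dehydrogenase in all wild type libraries and above it in all YAP2-5SA-∆C libraries. This ratio moved with *Ptges*, since *Hpgd* had no detectable difference at this depth.

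Of the EP receptors, *Ptger4* passed the test. *Ptger4* (ENSMUSG00000039942, chr15:5206661-5244187, minus strand) encodes EP4, which raises cyclic AMP when PGE2 binds. It had 500, 549 and 298 counts in wild type and 371, 292 and 332 counts in YAP2-5SA-∆C skin, or 27.5, 28.7 and 28.4 CPM against 20.6, 17.2 and 20.7 CPM. The wild type libraries lay close together and all YAP2-5SA-∆C libraries were below them. The means were 28.2 ± 0.638 and 19.5 ± 2.02 CPM (SD, n = 3), and the log2 fold change was -0.53 (SE 0.09, 95% interval -0.75 to -0.31, FDR 0.0445). The call was lost without any 1 of the libraries other than YAP2-5SA-∆C replicate 2, with FDR values of 0.0742, 0.186 and 0.146 without wild type replicates 1 to 3 and of 0.0701 and 0.0906 without YAP2-5SA-∆C replicates 1 and 3. It was also lost with no scaling beyond total counts (FDR 0.0532), and it had an FDR of 0.028 without YAP2-5SA-∆C replicate 2. *Ptger4* shares 82 exon bases with *Ttc33* and 1015 with the processed pseudogene *Gm15937*, both on the opposite strand, and the strand setting of the counting is not given in the sources used here. *Ttc33* had 184 to 282 counts with a log2 fold change of -0.10 (FDR 0.632), and *Gm15937* had 13 to 25 counts. The summed hair shaft markers (6208, 1291 and 7967 CPM in YAP2-5SA-∆C skin) and melanocyte markers (261, 151 and 249 CPM) were, like *Ptger4*, below wild type in all 3 libraries and lowest in replicate 2, and their part in the *Ptger4* values was not tested.

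*Ptger3* (ENSMUSG00000040016, chr3:157566892-157645888, plus strand), the EP3 receptor that mainly lowers cyclic AMP, had 12.9, 12.8 and 13.6 CPM in wild type and 11.1, 16.2 and 12.6 CPM in YAP2-5SA-∆C skin. The YAP2-5SA-∆C libraries lay on both sides of wild type, and the log2 fold change was 0.02 (95% interval -0.32 to 0.37, FDR 0.932). *Ptger2* (ENSMUSG00000037759, chr14:44988195-45003820, plus strand), the EP2 receptor, was barely counted, with 13, 20 and 3 counts in wild type and 20, 18 and 15 counts in YAP2-5SA-∆C skin. Its log2 fold change of 0.50 had a 95% interval from -0.41 to 1.42 (FDR 0.439), so that neither a rise nor a fall was detectable at this depth. The antisense gene *Gm17173*, which runs over *Ptger2*, had 0 to 3 counts.

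With *Ptger1*, which is not among the 10 genes, the EP receptor family could be read as shares of summed RPKM. *Ptger4* held 60.2%, 61.7% and 60.7% in wild type and 55.5%, 44.1% and 53.0% in YAP2-5SA-∆C skin. *Ptger3* held 33.1% ± 1.01 and 40.4% ± 7.35 (SD, n = 3). *Ptger4* was the most abundant EP receptor in all wild type libraries, also per kilobase of the longest transcript (7.29 to 7.62 RPKM against 3.57 to 3.80 RPKM of *Ptger3*). In YAP2-5SA-∆C replicate 2 the order of *Ptger4* and *Ptger3* depended on the length used: *Ptger3* was above by summed exon length (48.7% of the family), and the 2 were level by the longest transcript (4.54 RPKM of *Ptger3* and 4.56 RPKM of *Ptger4*).

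**Figure D3:**
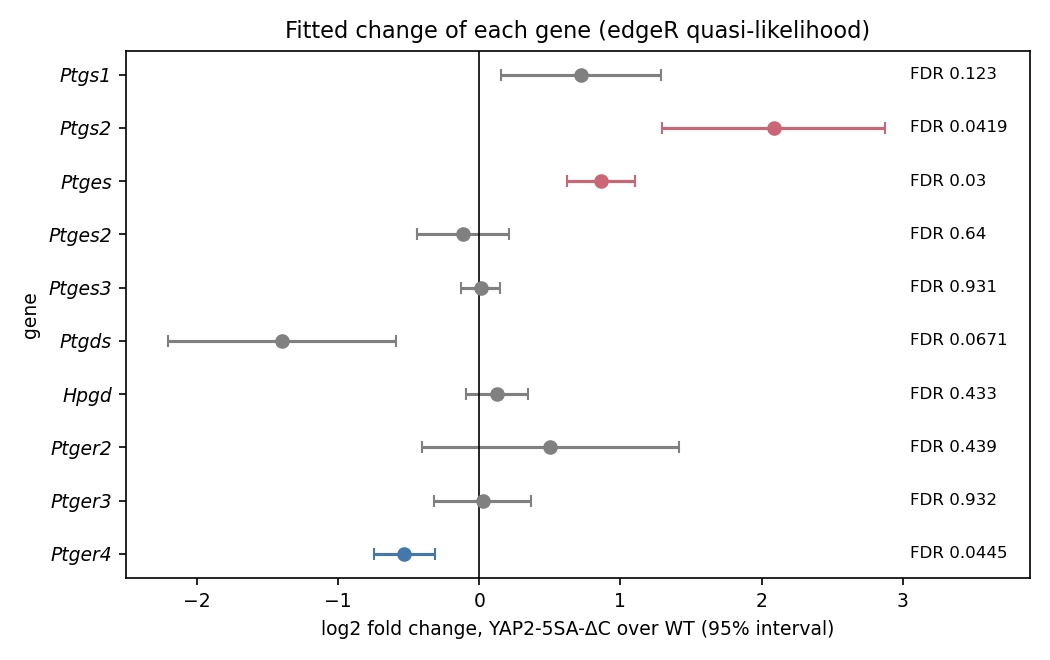
Fitted log2 fold change of YAP2-5SA-∆C over wild type skin (x axis) for each of the 10 genes (y axis), with 95% intervals and the FDR of edgeR's quasi-likelihood test. Red marks *Ptgs2* and *Ptges*, which passed as higher, blue marks *Ptger4*, which passed as lower, and grey the 7 genes that did not pass.

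By RPKM the 10 genes kept a wide spread of levels in each genotype. In wild type skin the order was *Ptges3* (56.0), *Ptgs1* (19.3), *Ptgds* (13.0), *Hpgd* (11.8), *Ptges* (9.22), *Ptger4* (4.24), *Ptges2* (3.01), *Ptger3* (2.30), *Ptgs2* (0.618) and *Ptger2* (0.131 RPKM). Of these neighbours, only *Ptgds* and *Hpgd* overlapped between libraries. In YAP2-5SA-∆C skin *Ptges* (16.8 RPKM) took the third place and *Ptgds* (4.92 RPKM) the fifth. From *Ptgds* down to *Ptger3*, each gene there overlapped its neighbour, with *Ptger4* at 2.93, *Ptges2* at 2.79, *Ptgs2* at 2.66 and *Ptger3* at 2.34 RPKM. *Ptgs2*, below *Ptger3* in all wild type libraries, was above it in YAP2-5SA-∆C replicate 1 and below it in replicate 2 by either length, and in replicate 3 it was above by summed exon length only. The middle of the order depends on gene length. Per kilobase of the longest transcript, *Ptger3* lay above *Ptges2* in both genotypes (3.66 and 3.06 RPKM in wild type skin, 3.72 and 2.83 RPKM in YAP2-5SA-∆C skin), and *Ptgds* no longer overlapped *Hpgd* in wild type.

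Marker lists of other cell types moved with genotype. The 6 stress keratinocyte markers, which keratinocytes make in wounded or inflamed epidermis, summed to 260, 411 and 442.5 CPM in wild type and to 1460, 867 and 1665 CPM in YAP2-5SA-∆C skin, where replicate 2 was the lowest, as it was for *Ptgs2*. The 6 basal keratinocyte markers summed to 3318 to 4060 CPM and to 5592 to 7220 CPM. The 6 macrophage markers summed to 307 to 363 CPM and to 444 to 485 CPM. The test was passed by 3 of 6 stress keratinocyte, 1 of 6 basal keratinocyte and 2 of 6 macrophage markers. It was also passed by 2 of 5 Langerhans cell, 2 of 5 melanocyte, 1 of 5 mast cell and 1 of 2 neutrophil markers tested. No marker of the other lists passed, beside 1.91% of all tested genes (288 of 15102). For neutrophils, 5 of 6 markers were analysed and summed to 8.63 to 12.7 CPM and to 20.5 to 28.8 CPM. *Csf3r* and *Cxcr2* carried this sum, while the granule genes *Mpo*, *Elane* and *Ngp* were at or near 0. The part of these cell types in the values of *Ptgs2* and *Ptges* was not tested. Summed fibroblast markers overlapped between genotypes (9449 to 12800 and 12260 to 15940 CPM), and so did dermal papilla (79.3 to 105 and 68.6 to 96.3 CPM), adipocyte, smooth muscle and skeletal muscle markers. Skeletal muscle markers summed to 1330, 6486 and 5308 CPM in wild type and to 3293, 2107 and 1275 CPM in YAP2-5SA-∆C skin. Wild type replicate 1 was thus far below the other wild type libraries for this list. Summed markers of suprabasal keratinocytes (3791 to 4550 and 5016 to 9280 CPM) and Langerhans cells (367 to 428 and 500 to 586 CPM) were higher in all YAP2-5SA-∆C libraries. So were those of sebaceous gland (3539 to 4198 and 4542 to 7221 CPM) and endothelium (105 to 115 and 119 to 147 CPM), and those of T cells touched (7.90 to 9.46 and 9.46 to 13.5 CPM). *Scd1* and *Fasn* carried the sebaceous sum, in which 4 of 5 log2 fold changes were positive and that of *Mc5r* was -0.242. All 5 Langerhans cell markers had positive log2 fold changes, but that of *Epcam* was 0.006.

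Other genes of prostanoid and leukotriene biology were read from a list of 49, of which 47 were in the table and 44 were tested. Of these, 2 passed, *Pla2g4d* and *Pla2g4e*, beside 1.91% of all tested genes, and both encode cytosolic phospholipases of the group that can release fatty acids from membranes. *Pla2g4d* reached the minimum of 1 CPM in YAP2-5SA-∆C libraries only, so it had to differ to be tested, and its call and direction are no support for the list. Of the 43 genes that reached the minimum in both genotypes, 1 passed. Their median log2 fold change was 0.30, with 30 positive and 13 negative, beside -0.01 over all tested genes, of which 7194 were positive and 7908 negative. *Pla2g4d* had 4, 4 and 3 counts in wild type and 24, 25 and 32 counts in YAP2-5SA-∆C skin, with a fitted log2 fold change of 2.75 (SE 0.32, FDR 0.030), on a wild type level near the limit of counting. *Pla2g4e* had 29.5, 27.6 and 27.8 CPM in wild type and 46.5, 44.6 and 60.6 CPM in YAP2-5SA-∆C skin, with a log2 fold change of 0.84 (SE 0.12, FDR 0.0398). Both genes were higher in all YAP2-5SA-∆C libraries than in any wild type library. Their FDR values rose to 0.177 and 0.178 without wild type replicate 2 and to 0.114 and 0.141 without wild type replicate 3. *Pla2g4e* also lost its call with wild type replicate 1 left out (0.064) and with YAP2-5SA-∆C replicate 1 (0.0592) or 3 (0.0906) left out, and *Pla2g4d* fell under the count filter without any 1 of the YAP2-5SA-∆C libraries.

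In the remaining groups no gene passed edgeR's quasi-likelihood test. At an unadjusted p below 0.05, there were 3 of 10 other synthases, reductases and dehydrogenases, 1 of 2 transporters, 2 of 5 other receptors and 8 of 13 lipoxygenase and leukotriene genes. Of all tested genes, 26.3% reached that level. By edgeR's likelihood-ratio test, 16 of the 44 genes passed, and by DESeq2 11, beside 10.4% and 10.5% of all tested genes. The carbonyl reductase *Cbr3* (log2 fold change 0.51, FDR 0.0622) and the aldo-keto reductase *Akr1c18* (0.83, FDR 0.0768) had the lowest p-values of the synthase group. *Abcc4*, which exports prostaglandins, had 0.65 (FDR 0.0657), and *Slco2a1*, which takes them up, had 0.34 (FDR 0.237). The prostacyclin receptor *Ptgir* had 0.76 (FDR 0.0619), the PGF receptor *Ptgfr* 0.56 (FDR 0.100) and the EP1 receptor *Ptger1*, named to complete the EP family, 0.06 (FDR 0.901). In the leukotriene group, *Alox5ap*, the activator of 5-lipoxygenase, had 0.45 (FDR 0.0643), and *Alox12e*, an epidermal lipoxygenase, had 0.81 (FDR 0.0801). *Alox8*, named after its values were seen, had the most negative fitted change of the list (-1.77, FDR 0.100), with 37.0, 56.7 and 52.0 CPM in wild type and 16.6, 4.0 and 22.2 CPM in YAP2-5SA-∆C skin. As with *Ptgds*, all YAP2-5SA-∆C libraries were below wild type and replicate 2 was the lowest.

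**Figure D4:**
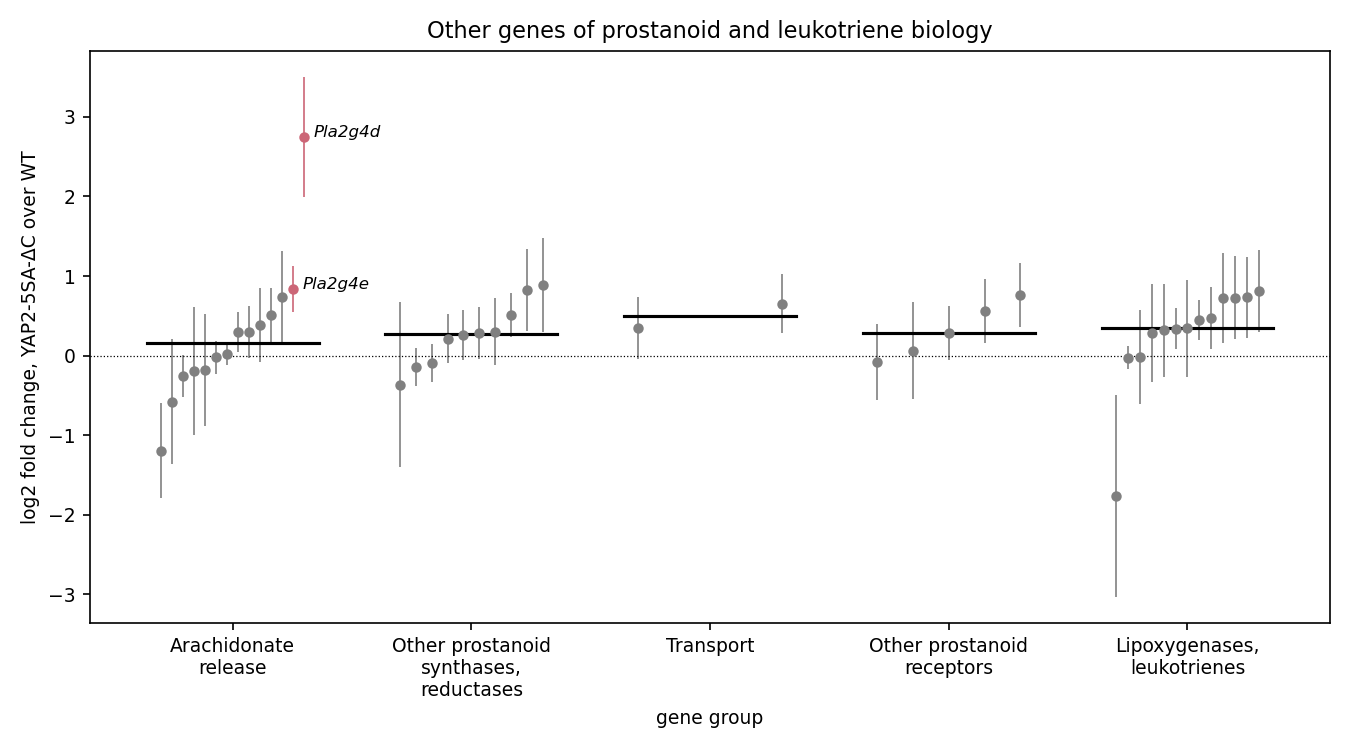
Fitted log2 fold change with 95% interval (y axis) of the 44 other tested genes, sorted within 5 groups (x axis). Black bars are group medians (0.16, 0.27, 0.50, 0.28 and 0.34 from left to right) and red marks *Pla2g4d* and *Pla2g4e*, which passed the test, the first of them reaching 1 CPM in YAP2-5SA-∆C libraries only.

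The genes most like *Ptgs2* over the 6 libraries were found by the root mean square difference of centred log2 CPM (prior count 2). The 5 nearest were *Serpinb6c* (0.212), *Fosb* (0.289), *Gsta4* (0.310), *Cd101* (0.312) and *Chil3* (0.34), where the median distance of all tested genes was 1.10. The root mean square of the centred *Ptgs2* values was itself 1.08, so a gene even across the libraries lies about that far away. *Cd101* reached the minimum of 1 CPM in YAP2-5SA-∆C libraries only. *Serpinb6c* had 2.36, 1.88 and 1.33 CPM in wild type and 8.12, 5.65 and 7.68 CPM in YAP2-5SA-∆C skin. Since these genes were chosen for their likeness to *Ptgs2* in the same 6 libraries, their difference between genotypes is a description. The noncoding neighbours of *Ptgs2* were close to the limit of counting, with 5, 5 and 4 counts of *Ptgs2os* in wild type and 2, 2 and 2 in YAP2-5SA-∆C skin, and 2 to 6 counts of *Ptgs2os2*, and neither was tested.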

How the data were processed

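RNA-Seq libraries of dorsal neck skin from 3 wild type and 3 YAP2-5SA-∆C mice were analysed from the raw counts per Ensembl gene that the authors deposited. Per the labels, paired-end reads were mapped to GRCm38 with TopHat2 2.0.12 and Bowtie2 2.1.0, and uniquely mapped reads were counted per gene with HTSeq-count. The labels name a stranded total RNA kit and the paper mRNA libraries. The annotation release and strand setting are not given in the sources used here, so overlapping and antisense genes are uncertain, and reads shared with near-identical copies are missing from the counts. Columns were matched to mice by title. Each library is a separate mouse.

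Genes reaching 1 CPM in 3 or more libraries were scaled by TMM and tested with glmQLFit and glmQLFTest of edgeR 4.0.16 (R 4.3.3), with genotype as the only term and Benjamini-Hochberg adjustment over 15102 genes. Intervals are at 95%. The likelihood-ratio test, voom (limma 3.58.1), DESeq2 1.42.0, other scalings and filters, a fit with the replicate number as a block, and fits that each left out 1 library were alternatives. The quasi-likelihood, likelihood-ratio and voom tests, but not DESeq2, were tried on simulated counts, and the outcome is not quoted here. Of the identifiers, 26021 matched GENCODE M21 and 558 did not. RPKM used the summed exon length. Promoter windows came from RefSeq, in which all 10 genes matched.

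The 10 genes, the other pathway genes and the marker lists were chosen with earlier results of these data known. All 10 genes are named. Of each other pathway group, the genes past an FDR of 0.05 are named, or, with fewer than 2, the 2 with the lowest p, and the 5 genes nearest to *Ptgs2*. *Hpgds*, *Alox8* and *Ptger1* were named outside this rule, after their values were seen.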

Additional observations from a re-analysis of the deposited data

How the results depend on the processing

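Across all tested genes, 288 passed edgeR's quasi-likelihood test, against 444 with no scaling beyond total counts, 497 without the count filter, 1568 by the likelihood-ratio test, 1583 by DESeq2 and 0 with a replicate block, where 2949 had an unadjusted p below 0.05. Among the 10 prostaglandin genes the count was 3, against 5 by the likelihood-ratio test and by DESeq2 and 0 with the replicate block (5 at an unadjusted p below 0.05). Among the other pathway genes it was 2, against 16 by the likelihood-ratio test, 11 by DESeq2 and 0 with the replicate block (19 at an unadjusted p below 0.05). Samples of the same replicate number did not deviate together (correlations of -0.332, -0.228 and -0.050). These correlations rest on deviations from means of 3 libraries and also carry differences in tissue make-up. The litter of each mouse is not given, so whether the numbers pair the mice is unknown. With 1 library left out, the counts ran from 0 to 816 for all genes, from 0 to 4 for the 10 genes and from 0 to 4 for the other pathway genes. Over all genes, none passed when wild type replicates 2 and 3 and YAP2-5SA-∆C replicate 3 were left out in turn (2725, 2844 and 3692 at an unadjusted p below 0.05), and highest without YAP2-5SA-∆C replicate 2. *Ptgs2*, *Ptges*, *Ptgds* and *Ptger4* kept their direction and an unadjusted p below 0.05 in each of these 6 fits. The sign of the log2 fold change turned for *Ptges3* without YAP2-5SA-∆C replicate 3 (-0.015, with a range of -0.015 to 0.068 over the 6 fits) and for *Ptger3* without YAP2-5SA-∆C replicate 2 (-0.128, with a range of -0.128 to 0.16). The cause of these changes was not tested. *Ptger2* fell under the count filter when wild type replicate 2, or either of YAP2-5SA-∆C replicates 1 and 2, was left out. Depth limited the reading of *Ptger2* and of *Pla2g4d* in wild type.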
